A study of Mus musculus with 6 samples.

Results

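Acute phase proteins are secreted or membrane proteins whose output changes during inflammation, and 8 genes of this kind that fat cells transcribe are described here on Affymetrix arrays of mouse mesenchymal stem cells exposed to terahertz radiation. The 8 genes, Wfdc21, Lrg1, Hpx, Hp, Lcn2, Saa3, Orm1 and Steap4, have 9 probe sets among the 45037 tested (Steap4 has 2), and they stand for 8 of 18193 genes that have a probe set with a single gene symbol. All probe sets annotated with exactly these symbols were taken. The genes were selected on these same arrays, from their irradiated minus control differences and in particular from the size of those differences in experiment 1, so the differences are given as a description with no test. Their choice was made with earlier results of these data known.

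There were 3 irradiated and 3 control cultures, 1 of each in each of 3 independent experiments. Irradiated cultures received pulsed broadband terahertz radiation for 2 h, in 35 fs pulses centred near 10 THz at 1 kHz and a mean power density of 1 mW/cm2, and each control stood next to its irradiated partner at the same 26 to 27 °C. Cells of both arms were a commercial mouse mesenchymal stem cell preparation grown in α-MEM with 5% serum, and both arms received rosiglitazone (1 µM), insulin (5 µg/ml), IBMX (100 µM) and dexamethasone (1 µM), given again 48 h ahead of exposure. Strain, sex and age of the donor animals are not in the labels. RNA was taken directly after exposure, so the comparison concerns transcripts at that time alone. The design sets each irradiated culture against the control of its own experiment.

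The acute phase response is best known from liver, where interleukin 6 acts through the receptor subunit gp130 and the transcription factor STAT3, while interleukin 1 and tumour necrosis factor act through NF-kB and C/EBP factors. Fat cells run a related program and secrete haptoglobin, lipocalin 2, serum amyloid A3 and orosomucoid. Glucocorticoids, of which dexamethasone is one, cooperate with these cytokines on many acute phase genes.

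Promoter sequences are shown for the 2 genes that were among the most lowered in experiment 1 (Lrg1 and Hpx), for the gene that was higher after irradiation (Saa3) and for the one whose window held a match to each of 3 motifs (Steap4). Each covers 250 bases before to 50 bases after the RefSeq transcription start on assembly GRCm38.p6, written 5′ to 3′ along the gene. The table used held 5 of the 8 genes, Lcn2 being the fifth. Capitals mark matches, on either strand, to a C/EBP-like motif (TTNNGNAA), a STAT motif (TTCNNNGAA) or the NF-kB consensus.
Lrg1 (chr17:56121897-56122196, minus strand): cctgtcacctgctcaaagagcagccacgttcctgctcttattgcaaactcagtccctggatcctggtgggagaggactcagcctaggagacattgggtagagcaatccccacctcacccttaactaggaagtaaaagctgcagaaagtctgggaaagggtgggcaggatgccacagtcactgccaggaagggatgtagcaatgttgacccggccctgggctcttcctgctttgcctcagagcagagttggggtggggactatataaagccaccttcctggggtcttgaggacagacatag
Hpx (chr7:105600067-105600366, minus strand): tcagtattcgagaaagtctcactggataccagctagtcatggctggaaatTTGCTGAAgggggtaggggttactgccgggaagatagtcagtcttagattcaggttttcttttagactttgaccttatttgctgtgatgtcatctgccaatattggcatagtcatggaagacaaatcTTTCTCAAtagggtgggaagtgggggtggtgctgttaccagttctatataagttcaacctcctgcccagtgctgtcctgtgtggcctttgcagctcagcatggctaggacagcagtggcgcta
Saa3 (chr7:46715627-46715926, minus strand): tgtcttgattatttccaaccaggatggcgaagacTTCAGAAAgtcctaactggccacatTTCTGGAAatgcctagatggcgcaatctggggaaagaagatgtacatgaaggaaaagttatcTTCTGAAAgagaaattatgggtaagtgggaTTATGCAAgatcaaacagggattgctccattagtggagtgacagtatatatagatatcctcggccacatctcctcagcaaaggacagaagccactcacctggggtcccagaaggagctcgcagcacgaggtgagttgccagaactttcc
Steap4 (chr5:7960222-7960521, plus strand): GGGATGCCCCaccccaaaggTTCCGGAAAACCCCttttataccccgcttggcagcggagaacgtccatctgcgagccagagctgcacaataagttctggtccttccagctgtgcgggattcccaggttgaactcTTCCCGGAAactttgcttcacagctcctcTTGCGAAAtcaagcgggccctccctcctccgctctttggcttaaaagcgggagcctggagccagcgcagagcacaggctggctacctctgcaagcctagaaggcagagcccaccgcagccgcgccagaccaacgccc

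The C/EBP-like motif was the common one, with 4 matches in the Saa3 window, 2 each in Hpx and Steap4, 1 in Lcn2 and 0 in Lrg1. The Saa3 match nearest to the start, TTATGCAA, began 99 bases before it. In Steap4 the match TTGCGAAA began 87 bases before the start and the STAT match TTCCCGGAA 116 bases before it. Both NF-kB matches lay in Steap4, where the second overlaps the C/EBP-like match TTCCGGAA. Of all 32851 promoter windows of this length, 40.7% held the C/EBP-like motif, 8.3% the STAT motif and 8.46% the NF-kB consensus, so 4 of 5 windows with the first of these is a count from few genes of a common motif. The start used for Saa3 lies inside the span annotated for that gene. A match describes letters and shows no binding.

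The level of 7 of the 8 genes averaged lower in irradiated than in control cultures, and that of Saa3 averaged higher. Wfdc21, Lrg1, Hpx, Lcn2 and Steap4 were lower in all 3 experiments, which holds for 11.2% of all probe sets. The lowering was largest in experiment 1 for Wfdc21, Lrg1 and Hpx, where irradiated cultures stood 2.87, 2.38 and 2.04 times below their control. By limma, fitted with a term for each experiment, 0 of 45037 probe sets, or 0%, passed adjusted p 0.05 between irradiated and control cultures, members included. The smallest limma adjusted p was 0.915, and 2237 probe sets, or 4.97%, had an unadjusted p under 0.05. The median difference over the 8 genes was -0.34 on the log2 scale, beside 0.0033 over all probe sets. Levels below are log2 values on the authors' scale, and differences are irradiated minus control with the SE of limma's fit over 3 pairs.

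**Figure D1:**
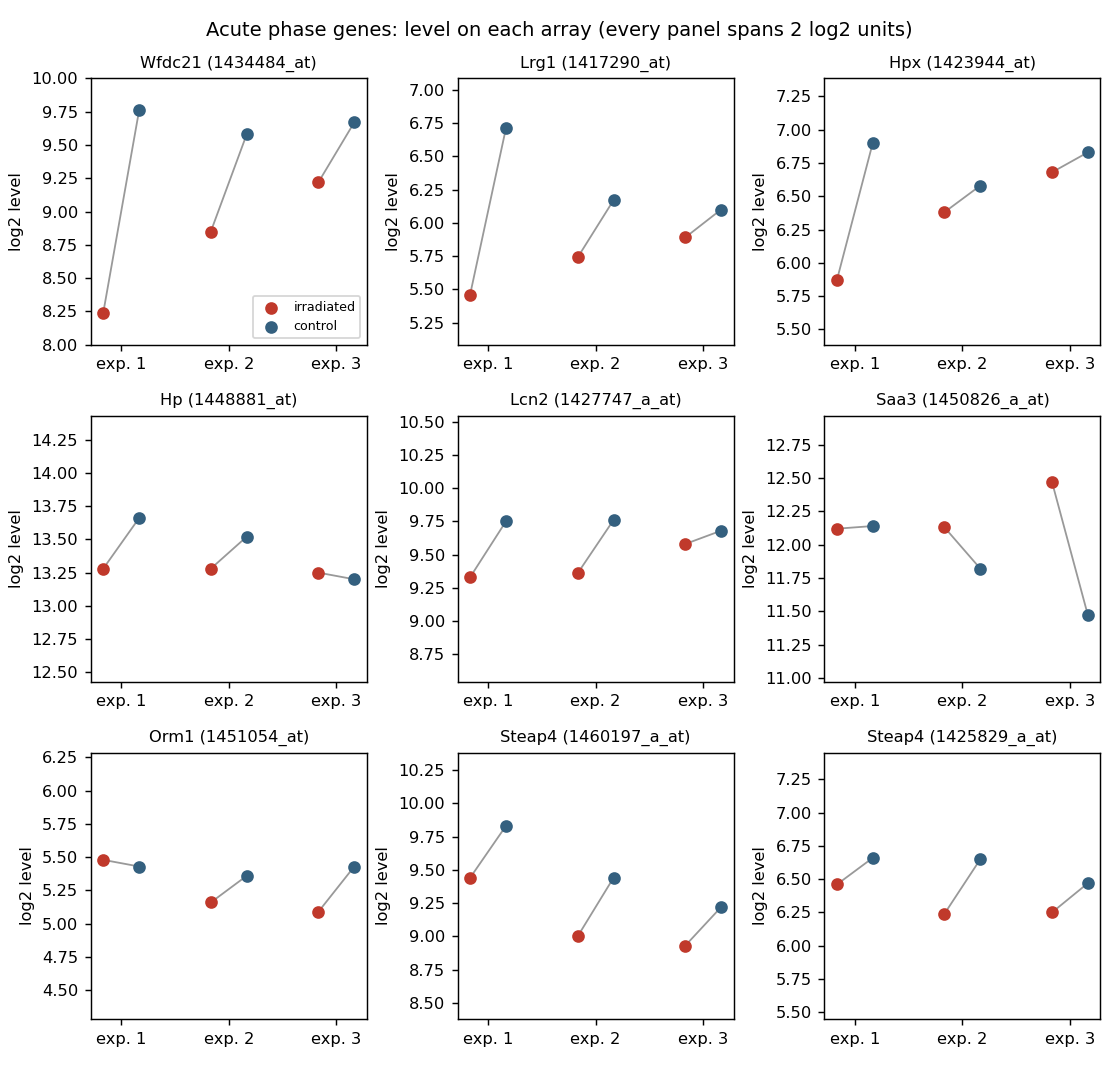
Log2 level of the 9 probe sets of the acute phase genes on each array, with irradiated (red) left of control (blue) in each of 3 experiments and a line joining the 2 cultures of an experiment. Each panel spans 2 log2 units around its own middle; Wfdc21, Lrg1 and Hpx have their steepest line in experiment 1 and Saa3 in experiment 3.

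Wfdc21, which encodes a small secreted protein with a whey acidic protein domain, also called Wdnm1-like and described as a product of fat cells, had the largest difference of the 8. Its level was 8.24, 8.85 and 9.22 in irradiated cultures 1, 2 and 3, against 9.76, 9.58 and 9.67 in controls 1, 2 and 3. All irradiated values lay below all control values. The controls were within 0.18 of each other, whereas irradiated cultures spanned 0.98, with culture 1 lowest. The pair differences were -1.52, -0.73 and -0.45, with a mean of -0.90 ± 0.20. Without replicate 1 the mean was -0.59.

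Lrg1, the leucine-rich alpha-2-glycoprotein that modulates TGF-beta signalling in blood vessels, followed with a mean of -0.63 ± 0.20. Its level was 5.46, 5.74 and 5.89 in irradiated cultures and 6.71, 6.17 and 6.10 in controls. The groups did not overlap. Here the control of experiment 1 was the highest of the controls and the irradiated culture of experiment 1 the lowest of its arm, so both cultures contribute to the pair difference of -1.25. The other pairs were at -0.43 and -0.21, and without replicate 1 the mean was -0.32.

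Hpx encodes hemopexin, which binds free heme in plasma. Its level was 5.87, 6.38 and 6.68 in irradiated cultures, against 6.90, 6.58 and 6.83 in controls. Irradiated culture 3 lay above control 2, so the groups overlapped. The pair differences were -1.03, -0.20 and -0.15 with a mean of -0.46 ± 0.18, and without replicate 1 the mean was -0.18. The value of Hpx therefore rested mostly on experiment 1.

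Hp, which encodes the hemoglobin-binding protein haptoglobin, varied little among irradiated cultures, at 13.28, 13.28 and 13.25. Its controls stood at 13.66, 13.52 and 13.20. Pair differences were -0.38, -0.24 and 0.05, and their mean was -0.19 ± 0.10. Without replicate 1 the mean was -0.10 and without replicate 3 it was -0.31. The irradiated arm spanned 0.03 and the control arm 0.46, so the unequal pair differences of Hp came from the controls, the reverse of Wfdc21. Irradiated culture 3 was above its own control.

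Lcn2 encodes lipocalin 2, which binds iron-carrying siderophores of bacteria. Its level was 9.33, 9.36 and 9.58 in irradiated cultures and 9.75, 9.76 and 9.68 in controls. The groups did not overlap. The pair differences were -0.42, -0.40 and -0.10, with a mean of -0.31 ± 0.09.

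Steap4 encodes a membrane metalloreductase that tumour necrosis factor induces in fat cells. On its brighter probe set the level was 9.44, 9.0 and 8.93 in irradiated cultures, against 9.83, 9.44 and 9.22 in controls. The groups overlapped, because the whole of experiment 1 stood higher. Within experiments the differences were alike, at -0.39, -0.44 and -0.29, with a mean of -0.37 ± 0.08. The other probe set read 6.46, 6.24 and 6.25 in irradiated cultures and 6.66, 6.65 and 6.47 in controls, without overlap. Its pair differences of -0.20, -0.41 and -0.22 had the same sign, with a mean of -0.28 ± 0.08. Of the 8 genes Steap4 had the most even pair differences.

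Orm1, which encodes the plasma carrier protein orosomucoid (alpha-1-acid glycoprotein), lay closest to the level filter, the median of all probe sets (4.84). It read 5.48, 5.16 and 5.09 in irradiated cultures, against 5.43, 5.36 and 5.43 in controls. Its pair differences were 0.05, -0.20 and -0.34, with a mean of -0.16 ± 0.10. Without replicate 1 the mean was -0.27 and without replicate 3 it was -0.08. This order, with the smallest difference in experiment 1, is opposite to that of Wfdc21, Lrg1 and Hpx. Near-identical copies of this gene exist, so the value is uncertain as to which copy it reads. The probe sets of Orm2 and Orm3 lay below the median level.

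Saa3, the serum amyloid A gene that mouse fat cells and macrophages transcribe, was the only one of the 8 with a higher mean in irradiated cultures. Its level was 12.12, 12.13 and 12.47 in irradiated cultures and 12.14, 11.82 and 11.47 in controls. Irradiated culture 1 lay just below control 1, so the groups overlapped. The pair differences were -0.02, 0.31 and 1.00, and their mean was 0.43 ± 0.19. In experiment 3 irradiated Saa3 was 2.00 times its control, with irradiated culture 3 the highest and control culture 3 the lowest of all arrays. Without replicate 3 the mean was 0.15. The probe sets of Saa1, Saa2 and Saa4, other members of this family, lay below the median level.

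**Figure D2:**
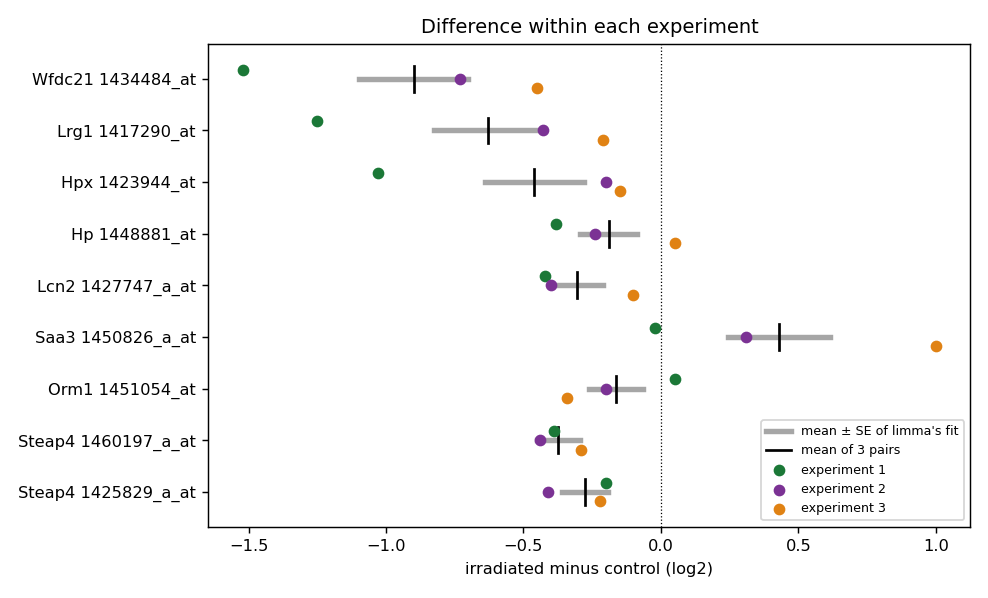
Irradiated minus control log2 difference of each probe set in experiments 1, 2 and 3 (points), with the mean of the 3 pairs (black tick) and its SE from limma's fit (grey bar). Points of experiment 1 lie at -1.52, -1.25 and -1.03 for Wfdc21, Lrg1 and Hpx, and the point of experiment 3 lies at 1.00 for Saa3.

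The experiment 1 differences of Wfdc21, Lrg1 and Hpx were among the most negative on the array. Only 9 of 45037 probe sets, or 0.0200%, were lower by 1 log2 unit or more in irradiated culture 1, and 3 of them were these genes, with Wfdc21 the most negative of all. Because the genes were selected on this difference, nothing is read from that count. The other 6 probe sets, named after their values were seen, were 2 of the annexin gene Anxa8 (-1.29 and -1.08), the fat-cell galectin gene Lgals12 (-1.11), the ACTH receptor gene Mc2r (-1.08), the glycerol 3-phosphate dehydrogenase gene Gpd1 (-1.07) and 1 unnamed here (-1.25). In experiments 2 and 3, 0.0178% and 0.109% of probe sets were lower by as much, and none of the 8 genes was.

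The most negative pair difference was that of experiment 1 in 6 of the 8 genes (Wfdc21, Lrg1, Hpx, Hp, Lcn2 and Saa3, the last at -0.02), beside 31.6% of all probe sets, and this too was part of the choice. Saa3 in experiment 3 was 1 of 29 probe sets, or 0.0644%, that were higher by 1 or more in irradiated culture 3. The 28 others included 2 probe sets each of the chemokine gene Cxcl13 (1.66 and 1.08) and the macrophage lectin gene Clec4e (1.09 and 1.04), likewise named after their values were seen. In control culture 3 Cxcl13 (6.29), Clec4e (8.03) and Saa3 (11.47) each had the lowest value of the 6 arrays. Non-overlapping groups with irradiated lower were seen in 4 of the 9 probe sets, beside 3.10% of all probe sets. They were those of Wfdc21, Lrg1 and Lcn2 and the dimmer one of Steap4. With the brighter probe set of each gene it was 3 of the 8 genes. The genes were selected on these differences, so nothing is read from that count either.

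**Figure D3:**
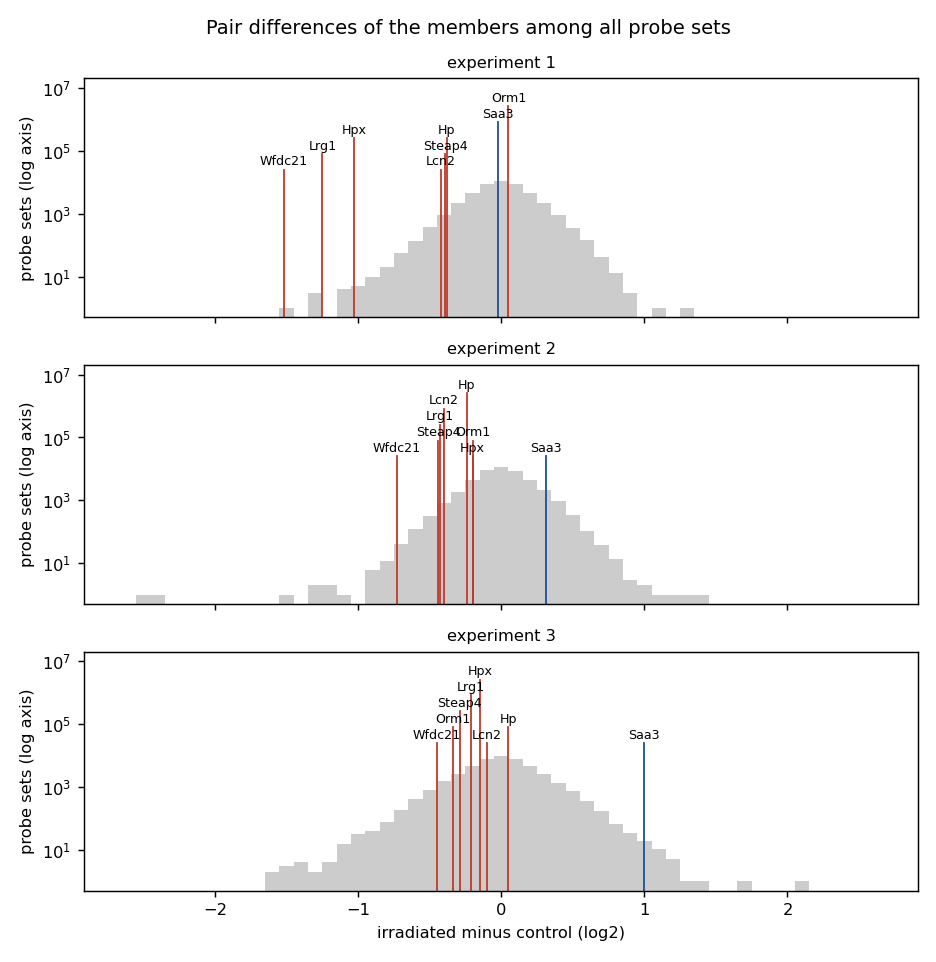
Number of probe sets (log axis) by irradiated minus control log2 difference in experiments 1, 2 and 3, as grey bars 0.1 wide, with the brighter probe set of each of the 8 genes as a labelled line (Saa3 in blue). In experiment 1 the lines of Wfdc21, Lrg1 and Hpx stand at the lower edge of the distribution, and in experiment 3 the line of Saa3 stands at 1.00.

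Control culture 3 stood apart on the spike-in controls, with a mean of 11.63 over 18 probe sets while the other 5 arrays read 11.06 to 11.25. For Actb, the 3′ control probe set exceeded the 5′ one most in experiment 1, by 0.76 in irradiated and 0.75 in control culture. The Actb values were 0.61 and 0.62 in irradiated and control culture 2. In experiment 3 they were 0.62 in irradiated and 0.72 in control culture. The corresponding Gapdh value was 0.23 in irradiated and 0.19 in control culture 1 and between -0.05 and -0.01 on the other arrays. The part of these differences in the results was not tested. Without replicate 3 the means of Wfdc21, Lrg1, Hpx, Hp, Lcn2 and Steap4 were -1.13, -0.84, -0.62, -0.31, -0.41 and -0.42, those of Orm1 and Saa3 -0.08 and 0.15.

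The mean level of the 8 genes in an experiment, taken over its irradiated and control culture, was compared between experiments with irradiation as a term. This level does not enter the difference within a pair, but the error of the comparison is the spread of the pair differences, which the choice of the genes drew on. The SE of the irradiated minus control difference was 0.20, 0.20 and 0.18 for Wfdc21, Lrg1 and Hpx and 0.08 for Steap4, beside a median of 0.0882 over all probe sets. A missed threshold therefore does not show that the level of a gene was alike between experiments. By limma's moderated F test 0 of the 8 genes passed, against 1.53% of all probe sets, with adjusted p by limma from 0.0949 for Steap4 to 0.941 for Lrg1 and 1 gene, Steap4, at an unadjusted p under 0.05. Among the pairwise contrasts, Steap4 passed for experiment 3 minus experiment 1, with experiment means of 9.08 and 9.64, a difference of -0.56 and a limma adjusted p of 0.0403. Its other probe set differed by -0.20 and was not called (limma adjusted p = 0.353). That contrast called 3.05% of all probe sets. Experiment 2 minus 1 and experiment 3 minus 2 called 0.520% and 0.0355%, and none of the 8 genes.

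The Steap4 call was lost without an irradiation term and without any of the 6 arrays, where limma adjusted p ranged from 0.169 to 0.454 while the difference stayed between -0.50 and -0.62. Over all alternatives its limma adjusted p ranged from 0.00204 to 0.454. Wfdc21 and Hpx had experiment means of 9.0, 9.22 and 9.45, and of 6.39, 6.48 and 6.76, in experiments 1, 2 and 3, with limma adjusted p by F of 0.592 and 0.614. An experiment holds 2 arrays, so small differences in the level of these genes could not be told from the spread between arrays.

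The cultures carried markers of fat cells and of macrophages, both of which are known to transcribe Lcn2 and Saa3. Of 10 measured adipocyte markers 9 were at or above the median level, Fabp4 at 14.37 ± 0.02 (SD, n = 3) in irradiated and 14.45 ± 0.04 (SD, n = 3) in control cultures, and leptin (Lep) was below it. Of 14 macrophage markers 13 were at or above it, among them lysozyme 2 (Lyz2) at 14.23 in irradiated and 14.19 in control cultures. In contrast 2 of 11 hepatocyte markers were, with albumin (Alb) below, and so were 3 of 9 neutrophil, 0 of 8 mesothelial and 1 of 8 endothelial markers. Of 9 stromal markers 8 were. In whole-culture RNA, fewer cells of a type cannot be told apart from less RNA per cell.

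Of the 10 adipocyte markers 9 had a negative and 1 a positive difference, and 0 passed. Lower in all 3 experiments were 7, beside 11.2% of all probe sets. The list was made with earlier results of these data known, so these counts are a description. Plin1 and Cfd, also on the list, were not measured by a probe set with that single symbol. The median was -0.20, and by experiment it was -0.13, -0.24 and -0.06. Their mean level ranged from 9.87 to 10.09 in irradiated and from 10.28 to 10.30 in control cultures. That mean includes Car3, which read 10.13 in irradiated and 12.57 in control culture 2 and so enlarges the gap between the arms. The lipid droplet gene Cidec was at -0.48 ± 0.09 (-0.63, -0.38 and -0.42 by experiment), the lipase gene Lipe at -0.35 ± 0.08, and the carbonic anhydrase gene Car3 at -1.17 ± 0.41 (-0.01, -2.44 and -1.05). The 3 markers with the highest level had smaller differences, with adiponectin (Adipoq) at -0.14 ± 0.08, the fatty acid binding protein gene Fabp4 at -0.08 ± 0.08 and the lipoprotein lipase gene Lpl at -0.03 ± 0.08. Lep was at 0.02 ± 0.08.

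Of the 14 macrophage markers 13 had a positive and 1 a negative difference, and 0 passed. Higher in all 3 experiments were 6. The share of all probe sets higher in all 3 was not counted, so nothing is read from the 6. The median was 0.08, and by experiment it was 0.02, 0.05 and 0.10. Their mean level ranged from 10.38 to 10.53 in irradiated and from 10.24 to 10.51 in control cultures, so the arms overlapped. The leukocyte gene Ptprc was at 0.19 ± 0.08 and the integrin gene Itgam at 0.22 ± 0.10, while Csf1r, Tyrobp, C1qa and Lyz2 were at 0.09, 0.06, 0.10 and 0.04. Cd163 was at -0.16 ± 0.16. The neutrophil list had a median of 0.02, the hepatocyte list 0.05, the mesothelial list 0.09, the endothelial list 0.07 and the stromal list 0.01, none with a member past the test. The part of either cell type in the differences of the 8 genes was not tested.

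Of 35 other acute phase genes listed, 26 were measured, and 10 of these, against all 8 of the genes described here, were at or above the median level. Over the 26, 12 differences were negative, 13 positive and 1 was 0, 0 passed, and the median was 0.0083. Of the 10 at or above the median level, 6 were negative and 4 positive, with a median of -0.05, and the list was not tested against the 8 genes. Among those at or above the median level, ceruloplasmin (Cp), the copper-carrying ferroxidase, was at -0.30 ± 0.08 (-0.18, -0.30 and -0.41). The protease inhibitor gene Serpina3n was at -0.19 ± 0.08 (-0.20, -0.28 and -0.08), and the lipopolysaccharide-binding protein gene Lbp at -0.25 ± 0.11 (0.05, -0.39 and -0.41).

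Cd14, the lipopolysaccharide co-receptor, was at 0.27 ± 0.09, with 10.61, 10.65 and 11.04 in irradiated cultures against 10.31, 10.53 and 10.64 in controls. The metallothionein genes Mt1 and Mt2 were at -0.04 ± 0.08 and -0.06 ± 0.08. The classical liver products Fga, Fgb, Fgg, Crp, Apcs and Hamp were below the median level. None of these named genes passed the test.

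Genes of IL-6, STAT3, C/EBP and NF-kB signalling had a median difference near 0 between irradiated and control cultures, but some varied widely between experiments. Of 31 measured, 20 were negative, 11 positive and 0 passed. The median was -0.02, and by experiment it was 0.02, 0.01 and -0.13. The C/EBP genes Cebpb and Cebpd were at -0.07 ± 0.09 and -0.09 ± 0.09, and the NF-kB inhibitor gene Nfkbia at 0.15 ± 0.09. Tnfaip3, an NF-kB feedback gene, was at 0.18 ± 0.09, the cytokine gene Lif at -0.21 ± 0.20 and the receptor gene Il6ra at -0.21 ± 0.11. No gene of this list had its experiment 1 difference near those of Wfdc21, Lrg1 or Hpx. Those genes were selected on that difference, and only 0.0200% of all probe sets were lower by 1 or more there. Nothing is therefore read from their absence in this list. The most negative of the list in experiment 1 was Il11 at -0.25, but it was at 1.16 and -0.96 in experiments 2 and 3 (mean -0.02 ± 0.36). By experiment Il6 was at 0.31, 0.06 and -0.78, and Lif at 0.26, -0.04 and -0.84. Il11 and Il6 were named after their values were seen.

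Between experiments 7 of the 31 genes of this list passed limma's F test, beside the 1.53% of all probe sets and 0 of the 8 acute phase genes, and the counts were not tested against each other. The 7, named after their values were seen, were Cebpb, Nfkbiz, Socs3, Pim1, Lif, Il6 and Osm. Il6 stood at 5.92, 7.92 and 7.63 in irradiated cultures and at 5.61, 7.86 and 8.41 in controls (limma adjusted p by F = 0.0203). The STAT3 feedback gene Socs3 stood at 10.26, 10.32 and 11.18 in irradiated cultures and at 10.13, 10.38 and 11.03 in controls (limma adjusted p by F = 0.0248). Experiment 1 was the one with the least Il6 in both arms. These calls too were absent when any 1 array was left out.

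Receptors and clearance partners of the acute phase proteins had a median difference of 0.0067, with 6 of 17 negative, 11 positive and 0 past the test. The formyl peptide receptor gene Fpr2, whose protein binds serum amyloid A, was at 0.47 ± 0.15. It read 9.10, 8.78 and 8.78 in irradiated cultures and 8.76, 8.63 and 7.85 in controls, and, as for Saa3, control culture 3 was lowest and experiment 3 had the largest difference (0.93). Tlr2 was at 0.17 ± 0.08 and endoglin (Eng), a partner of LRG1 protein in TGF-beta signalling, at 0.14 ± 0.09. Heme oxygenase Hmox1 (-0.13 ± 0.09), ferritin Fth1 (0.01 ± 0.07) and the iron exporter Slc40a1 (-0.09 ± 0.09) are on the paths that handle heme and iron, and Hmox1 was the 1 gene of this list past the F test between experiments (limma adjusted p = 0.0144). The hemoglobin-haptoglobin receptor gene Cd163 was below the median level.

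Among the other metalloreductases of the STEAP family, Steap1 and Steap2 were at 0.01 ± 0.09 and -0.02 ± 0.09, and both had their highest pair difference in experiment 1, at 0.14 and 0.13. Steap3 was at 0.15 ± 0.12. None passed the test.

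**Figure D4:**
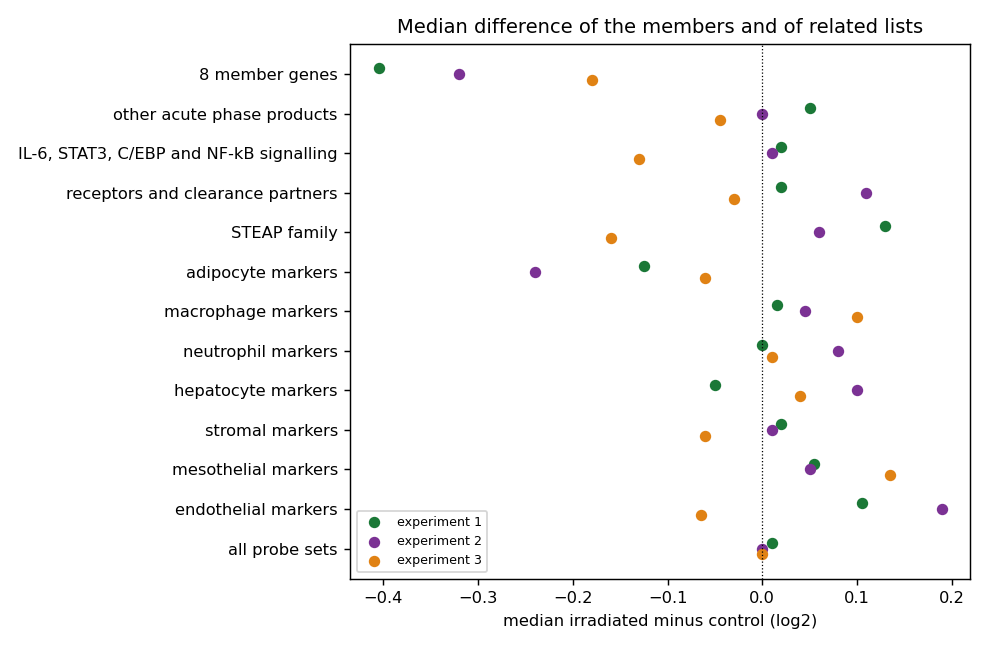
Median irradiated minus control log2 difference in experiments 1, 2 and 3 (points) for the 8 acute phase genes, for related gene lists, for cell type markers and for all probe sets. The medians of the 8 genes are -0.41, -0.32 and -0.18, and those of the list of other acute phase products are 0.05, 0.00 and -0.05.

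The mean profile of the 8 genes over the 6 arrays was set against 2497 other genes at or above the median level and with a range of at least 0.5. The highest Pearson correlations over 6 arrays were those of Prxl2a (0.95), Mc2r (0.95), the fatty acid synthase gene Fasn (0.94), Anxa8 (0.94), Tmem97 (0.93) and the amino acid transporter gene Slc36a2 (0.93). They are the highest of many candidates on arrays shared by both sides and carry no test. By distance between pair differences, the mean of the 8 genes (-0.62, -0.29 and -0.06) was closest to Fasn (-0.60, -0.38 and -0.11), followed by H3c11, Echdc1, 1700018B08Rik, Hibch and Mgst2 among 11732 candidates. Fasn was the gene that both measures named. Both measures used a mean that includes Saa3, which was at 1.00 in experiment 3, where the median of the 8 genes was -0.18.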

How the data were processed

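The deposited values are 1 level per probe set and array on a log2 scale, made by the authors; the submitters' processing notes name RMA, affy and limma with no versions or roles, and RMA corrects background, equalizes the arrays' distributions and summarizes probes. No source states the log base, which was taken as that of RMA. Equalizing removes any change common to all transcripts. Values carry 2 decimals, and scanner files were not used here. Per the labels' protocols, 200 ng of total RNA was labelled with biotin.

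Tests covered 45037 probe sets, without 64 Affymetrix controls. Names come from the platform annotation, and 8 of 8 symbols were found in a RefSeq table of GRCm38.p6. Tests used limma 3.58.1 in R 4.3.3 (lmFit, eBayes, two-sided, Benjamini-Hochberg over all 45037 probe sets, threshold 0.05) on 6 arrays with the experiment and irradiation as terms, and were tested on simulated data. The experiment was kept as a block because the series design pairs each irradiated culture with its own control; after subtracting group means, the arrays of a pair correlated at r = 0.63, 0.14 and 0.50 in experiments 1, 2 and 3. With 3 pairs a sign-flip test cannot give a two-sided p under 0.25. For counts over genes, the probe set with the highest mean level stood for a gene. In each of the 4 lists of related genes the 3 genes with the highest level and the 3 with the largest difference at or above the median level were named, and likewise for adipocyte and macrophage markers. Other cell type markers are given as counts and medians. Genes below the median level (Lep, Alb, Cd163 and liver products among them) and others the report marks were named after their values were seen. The number of arrays limits the precision. The members and lists were chosen with earlier results of these data known. Alternatives were other block settings, normalizations, filters and moderation, and leaving out arrays or experiments.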

Additional observations from a re-analysis of the deposited data

How the results depend on the processing

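With no replicate block 0 probe sets passed between irradiated and control cultures, as with a random block, quantile normalization, median centring, array weights, the level filter and without any 1 replicate. An intensity trend with a robust prior called 1, Tmem182 (-0.89, limma adjusted p = 0.0399), which is none of the 8 genes. Under other normalizations, averaged probe sets and without any 1 replicate, 7 of the 8 genes had a lower mean in irradiated cultures and Saa3 a higher one. Because every experiment holds both arms, the block setting cannot change a mean difference. The genes were selected on these differences, so the unchanged count is a description. Between experiments, 4.99% of probe sets passed the F test when only those at or above the median level were tested and 5.29% with the trend and robust prior; each of these settings called 1 of the 8 genes, Steap4. Leaving out any 1 of the 6 arrays gave 0% to 0%, from fits with fewer arrays. The causes of the other moves were not tested.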
